A study of Caenorhabditis elegans with 2 samples.

Results

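The smaller of the 2 dense 21U-RNA gene regions of Caenorhabditis elegans lies on chromosome IV between positions 4500000 and 7000000 of the ce11 build. The authors' list of peaks called on both replicates together, referred to here as the pooled list, holds 30000 peaks. Of these, the 718 whose summit falls in that window are described here (2.39% of the list). They were chosen by position only, so their signal and their distance to genes were not used in the choice. The signal changed little at the edges of the window. At the lower edge the first peak inside had a signal of 3.62 and the last one outside 3.53. At the upper edge they had 3.54 and 4.15.

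The peaks come from chromatin immunoprecipitation and sequencing (ChIP-seq) of the SNPC-4 protein. The animals were whole L4 larvae of mixed sex, of strain OP179 with the genotype unc-119(ed3) III; wgIs179. wgIs179 is the insertion that carries eGFP-tagged snpc-4. The allele unc-119(ed3) and the insertion are shared by both samples, which are 2 biological replicates of 1 group. No source used here names the promoter that drives the tagged gene. Since whole animals were used, the cells in which a site was occupied cannot be told apart, and no control sample was analysed here.

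21U-RNAs are the piRNAs of nematodes. They guide the Argonaute PRG-1 in the germline against foreign and transposon transcripts, and most of them are transcribed one by one as short precursors by RNA polymerase II. Upstream of many 21U-RNA genes lies a conserved motif with the core CTGTTTCA. SNPC-4 is the worm relative of the DNA-binding subunit of the small nuclear RNA activating complex (SNAPc), which recruits polymerases to snRNA and spliced leader genes, and it has also been linked to the 21U-RNA regions of chromosome IV.

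The window matched its name in the annotation. It held 2816 of the 15363 annotated 21U-RNA genes (18.3%), at 113 per 100 kb, with 1356 on the plus and 1460 on the minus strand. A larger region, from position 13500000 to the chromosome end, held 11563 (290 per 100 kb), and the rest of chromosome IV 335 (3.05 per 100 kb). Within the window, 1379 of the genes lay in an intron of a protein-coding gene, 131 in an exon and 1306 outside protein-coding genes. All 2816 were 21 nucleotides long.

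Both replicates gave peak lists of their own, of 11042 peaks for replicate 1 and 30000 for replicate 2, so the strongest 11042 peaks of replicate 2 were used wherever the replicates were set side by side. Read depth is unknown. At this equal length chromosome IV held 23.5% of the replicate 1 peaks and 16.1% of the replicate 2 peaks. The libraries differed in the window (403 and 247 peaks) and in the larger region (1091 and 395). The rest of the chromosome held similar numbers, 1106 and 1136. Most results that rest on the pooled list are therefore given for each replicate as well. With 1 group of 2 samples and no control there was no test over samples. The 95% intervals below are exact and cover only counting error.

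The strongest of the 718 peaks stood at genes of small RNAs other than 21U-RNAs. The sequences below run 50 bases to either side of the summit, on the strand of the gene. They are shown because 6 of the 8 strongest such windows (snRNA, SL2 and snoRNA genes on the authors' thresholded list) held the same 6 bases, TGTCGG, in capitals. Genome sequence is RefSeq's for WBcel235, the same sequence as ce11. The first 3 genes were taken by signal, and the next pair, sls-2.17 and M03D4.78, was added after the values were seen.
T08B6.64, snoRNA gene, chrIV:4880850-4880950, minus strand: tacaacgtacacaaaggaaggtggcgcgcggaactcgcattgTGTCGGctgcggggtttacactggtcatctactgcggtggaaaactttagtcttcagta
Y9C9A.111, snRNA gene, chrIV:4930842-4930942, plus strand: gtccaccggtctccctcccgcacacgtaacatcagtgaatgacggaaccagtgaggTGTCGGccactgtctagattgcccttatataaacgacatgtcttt
sls-2.13, SL2 RNA gene, chrIV:5063541-5063641, minus strand: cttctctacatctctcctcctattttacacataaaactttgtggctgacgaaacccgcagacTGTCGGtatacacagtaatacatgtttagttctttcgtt
sls-2.17, SL2 RNA gene, chrIV:5317368-5317468, minus strand: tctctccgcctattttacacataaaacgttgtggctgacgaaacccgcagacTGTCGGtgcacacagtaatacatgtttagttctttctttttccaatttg
M03D4.78, snoRNA gene, chrIV:6117885-6117985, minus strand: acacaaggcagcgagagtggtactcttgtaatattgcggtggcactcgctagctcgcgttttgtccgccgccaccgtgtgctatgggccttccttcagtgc

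The hexamer TGTCGG began at −58 bp from the 5′ end at T08B6.64, at −56 bp at Y9C9A.111 and ZK185.9, at −48 bp at sls-2.13 and sls-2.17, and at −68 bp at Y73B6A.14. M03D4.78 and C17H12.36, both snoRNA genes, lacked it. The windows of sls-2.13 and sls-2.17 had nearly the same sequence, and those of M03D4.78 and C17H12.36 shared a long stretch. The 8 windows are therefore not 8 separate sequences. The hexamer was found by looking at these windows, so its presence there is a description of how it was chosen. On either strand, within 100 bp of the summit, it was in 1 of the 17 peaks at small RNA genes outside these 8 windows, and in 34 of the 693 peaks without such a gene (4.91%). Among all windows of that length in the region, 4.13% held it.

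For 21U-RNA genes closest to strong peaks, a different stretch is shown, since their summits lie up to 270 bp from the 5′ end. It comprises the 60 bases upstream of the 5′ end followed by the 21U-RNA itself. The core CTGTTTCA is in capitals, and 3 of the genes carry it and 1 does not. They are printed because their summits are among the highest near any 21U-RNA gene of the window without another small RNA gene close by.
21ur-8200, chrIV:5590992-5591072, minus strand: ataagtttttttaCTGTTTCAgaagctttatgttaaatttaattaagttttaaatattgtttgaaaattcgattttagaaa
21ur-7377, chrIV:5265097-5265177, minus strand: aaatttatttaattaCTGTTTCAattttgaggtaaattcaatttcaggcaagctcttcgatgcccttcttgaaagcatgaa
21ur-8766, chrIV:5594271-5594351, plus strand: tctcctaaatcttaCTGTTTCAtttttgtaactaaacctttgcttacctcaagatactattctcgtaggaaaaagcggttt
21ur-11261, chrIV:5364359-5364439, plus strand: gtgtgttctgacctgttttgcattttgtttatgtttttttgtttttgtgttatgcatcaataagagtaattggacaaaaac

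Across the window the core lay within 100 bases upstream, on the same strand, of 1132 of the 2816 21U-RNA genes (40.2%). Over all positions and both strands of the window, 2.48% had it that close upstream. Where present, its first base was most often at −46 bp from the 5′ end (390 genes), and its median position was also −46 bp.

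Signal was low for most of the 718 peaks and high for a few of them. Their median signal was 4.93, with a range of 3.28 to 188, beside a median of 4.83 for the rest of chromosome IV and 4.92 for the whole list. The authors give no scale for the signal, so it serves only to order peaks within a list. Small RNA genes other than 21U-RNA genes had their 5′ end within 300 bp of 25 of the peaks, and without these 25 the highest signal was 39.7. A second authors' list keeps the 381 peaks that passed their irreproducible discovery rate (IDR) procedure. It held 16 of the 718 (2.23%, 1.28 to 3.59), where 1.27% of the whole pooled list was on it. Among the strongest 3000 of the pooled list there were 84 (11.7%, 9.44 to 14.3, of the 718, beside 10% by construction for the whole list), and among the strongest 10000 there were 255 (35.5%, beside 33.3%).

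**Figure D1:**
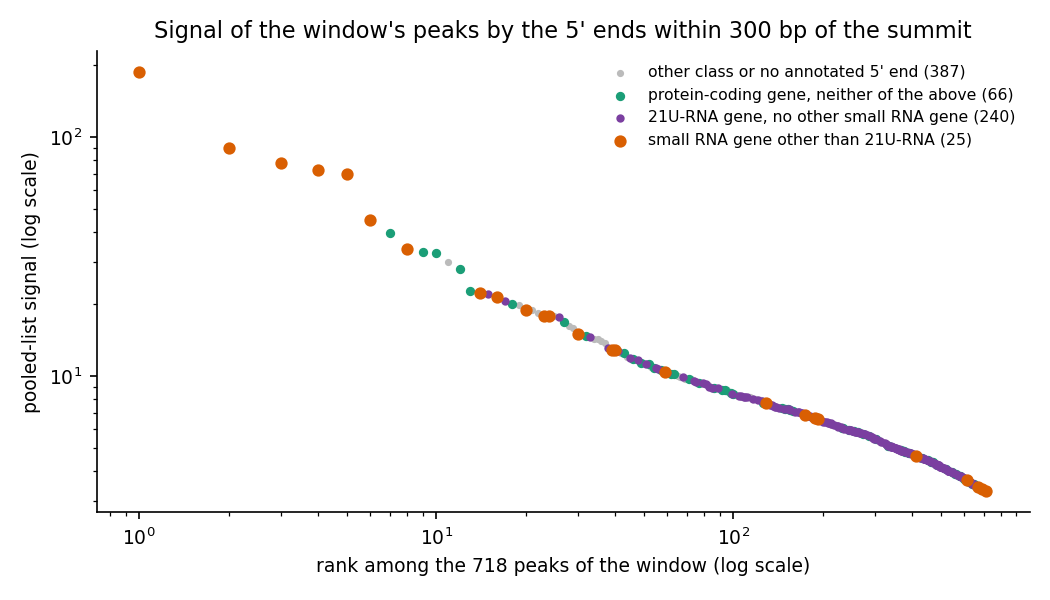
Pooled-list signal (log scale) of each of the 718 peaks against its rank among them (log scale), coloured by the 5′ ends within 300 bp of the summit and with small RNA genes drawn on top. The 6 strongest peaks, from 188 down to 45.0, were all at small RNA genes other than 21U-RNA genes.

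The strongest peak lay at T08B6.64, a snoRNA gene outside protein-coding genes (WBGene00206375; 4880738 to 4880850). Small nucleolar RNAs guide the chemical modification of rRNA. Its signal was 188 in the pooled list, 57.6 in replicate 1 and 130 in replicate 2, with the summit 50 bp upstream of the 5′ end. The snRNA gene Y9C9A.111 (WBGene00235247; 4930954 to 4931055), in an intron of Y9C9A.8, followed at 90.4, with 41.2 in replicate 1 and 44.3 in replicate 2. At both genes the replicates each placed the peak high, between ranks 42 and 85 of their own lists.

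SL2 RNAs donate the leader that is spliced onto downstream genes of operons. All 3 SL2 genes of the window had a summit within 300 bp, where 88.9% of such genes did in the genome. The gene sls-2.13 (WBGene00004845; 5063422 to 5063531) had a pooled signal of 78.2, with 43.8 and 36.1 in replicates 1 and 2. At sls-2.17 (WBGene00004849; 5317260 to 5317368) the values were 70.2 in the pooled list, 25.7 in replicate 1 and 41.0 in replicate 2. The third, sls-2.12 (WBGene00004844; 5261913 to 5262022), was far lower, at 10.4, 2.09 and 7.86, and its summit lay 53 bp downstream of the 5′ end. In replicate 1 it ranked 10245 of 11042, near the end of the list, and in replicate 2 it ranked 2075 of 30000. So 2 of the 3 SL2 genes were among the strongest 100 peaks of each replicate list and the third was not.

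Of the 10 snoRNA genes of the window, 7 had a summit within 300 bp, where 48.8% did in the genome. After T08B6.64 came M03D4.78 (WBGene00220029), at 72.5, 23.5 and 49.3 in the pooled list and replicates 1 and 2. Its peak also lies 280 bp upstream of zen-4, which encodes a kinesin of the dividing cell's central spindle. ZK185.9, in an intron of ZK185.2 on the opposite strand, had 45.0, 21.2 and 20.7. C17H12.36 had 34.1, 15.9 and 17.2, and Y73B6A.14, in a same-strand intron of Y73B6A.1, had 22.3, 9.68 and 13.6. These 5 genes were on the IDR list. The next snoRNA genes, C06E7.95 and Y73B6A.15, were at 3.67 and 3.36, near the floor of the list, and K08F11.8, T19E7.29 and C01B10.48 had no summit within 300 bp.

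Among the 4 snRNA genes, which encode RNAs of the spliceosome, 3 had a summit within 300 bp (56.2% in the genome). Behind Y9C9A.111 stood T08B6.62, with 18.9 in the pooled list, 6.81 in replicate 1 and 10.7 in replicate 2, and Y17G9A.85, with 17.9, 8.75 and 7.21. The gene without one was Y17G9A.90. The single SmY gene of the window, smy-7, which encodes a small RNA of trans-splicing, had none, where 80% of SmY genes had one in the genome.

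At the 8 snRNA, SL2 and snoRNA genes on the IDR list the summit lay upstream of the 5′ end each time, from −68 to −41 bp with a median of −54.5 bp. The 13 such genes with any summit within 300 bp ranged from −249 to 143 bp, with a median of −50 bp and 11 of them upstream. Transfer RNA genes had their summits closer to the 5′ end, from −96 to −3 bp with a median of −27.5 bp over 6 genes. No test of that difference was made.

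Of 9 tRNA genes, 6 had a summit within 300 bp (64.2% in the genome). The strongest was B0350.t1, a lysine tRNA gene (5967160 to 5967232), at 21.4 in the pooled list, 8.97 in replicate 1 and 8.81 in replicate 2. Its peak is the weakest of the 16 on the IDR list and lies 66 bp from the 5′ end of a 21U-RNA gene. C09B9.t1, another lysine tRNA gene, had 17.9, 11.1 and 11.4. C43G2.t1 (leucine) had 15.0, 3.80 and 13.5, and Y4C6B.t1 (glutamine) 12.8, 7.34 and 10.6. Y4C6B.t2 (tryptophan) had 12.8, 4.99 and 8.06. The tRNA genes Y17G9A.t1, Y73B6BL.t2 and C43G2.t2 had no summit within 300 bp.

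MicroRNA genes were weak. A summit within 300 bp was found at 4 of 9 (26.1% in the genome), namely mir-4815 (6.86), mir-8201 (6.68), mir-228 (6.59) and mir-58.2 (3.41). mir-4815 had 2.25 in replicate 1 and 4.99 in replicate 2. mir-8201 and mir-228 had no replicate 1 summit (5.83 and 7.95 in replicate 2). mir-58.2 had none in replicate 2 (3.05 in replicate 1). The summit counted for mir-8201 lay 300 bp upstream of it and 39 bp into the protein-coding gene hil-2. None of the 4 was on the IDR list. The genes mir-8191, mir-2217.1 and mir-790 were the first without one by position. None of the 6 lincRNA genes had a summit (26.3% in the genome), among them linc-79, linc-145 and linc-36, and neither of the 2 antisense RNA genes, H06H21.36 and anr-4, did (26% in the genome). A count of 0 in 6 leaves a share of up to 45.9% by the exact interval.

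Protein-coding promoters gave the next group of strong peaks. Y17G9B.5 led, at 39.7 in the pooled list, 26.1 in replicate 1 and 13.6 in replicate 2, with the summit 160 bp upstream; a ribosomal protein gene, rpl-18A by its RefSeq name, starts just beyond 300 bp from the same summit. W03F8.4 followed at 33.0, 20.98 and 9.73. C17H12.2 had 32.6, 11.6 and 19.7, with vha-8, a subunit of the vacuolar proton pump, on its other side. The peak at 30.0 had 10.4 in replicate 1 and 16.4 in replicate 2, and its closest gene was sqd-1, which encodes an RNA-binding protein, 313 bp away and so just outside the distance used for counts.

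Some of these summits lay upstream of a gene on each strand. F38A5.2 and dnj-11, which encodes a co-chaperone of the DnaJ family, shared a summit at −211 and −260 bp, with 28.0 in the pooled list, 13.8 in replicate 1 and 12.6 in replicate 2. C01B10.9 and cest-5.1 shared one at 22.6, 12.9 and 9.94. At ruvb-2, which encodes an ATPase of chromatin complexes, the values were 20.03, 13.8 and 6.64, and this peak was not on the IDR list.

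Over all 482 protein-coding genes of the window, 104 had a summit within 300 bp (21.6%, 18.0 to 25.5), where 23.4% did in the genome. Replicate 1 alone gave 64 such genes and replicate 2 gave 43. The strongest summit of each of the 104 lay at a median of −22.5 bp from its 5′ end, with 57 upstream. These were 93 different summits, as some serve a pair of genes, and their median signal was 5.72. Unclassified ncRNA genes had one at 75 of 231 (32.5%; 30.3% in the genome), and pseudogenes at 12 of 52 (23.1%, 12.5 to 36.8; 13.3% in the genome). The peak at position 5264946 is of this last kind. With 20.5 in the pooled list, 11.5 in replicate 1 and 9.75 in replicate 2, it lies closest to the ncRNA gene F36H12.66, beside the pseudogene sls-2.19 and 171 bp from 21ur-7377.

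By far the most numerous group had no annotated 5′ end within 300 bp. Of the 718 peaks, 346 (48.2%) lay farther than 300 bp from every annotated 5′ end, with a median signal of 4.78 and 1 of them on the IDR list. Another 209 lay near a 21U-RNA gene and no protein-coding or other small RNA gene, at a median of 4.91, and 31 near both a 21U-RNA and a protein-coding gene. There were 66 near a protein-coding gene without a 21U-RNA gene, 5 of them on the IDR list, and 41 near other classes. The 25 near a small RNA gene had a median of 15.0, and 9 of them were on the IDR list. This split is given for the pooled list only. Its counts are not set beside the share of bases in each group, so they show neither excess nor lack.

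The overall number of peaks in the window was close to that of the chromosome around it. The pooled list had 28.7 summits per 100 kb (26.7 to 30.9), beside 29.0 in the rest of chromosome IV, a ratio of 0.991, and 38.6 in the larger 21U-RNA region. The replicates differed here. In replicate 1 the window held 403 summits, or 16.1 per 100 kb (14.6 to 17.8), beside 10.1 in the rest of the chromosome, a ratio of 1.60. In replicate 2 it held 247, or 9.88 per 100 kb (8.69 to 11.2), beside 10.3, a ratio of 0.957. The higher density was thus seen in 1 of the 2 libraries. The larger region had 27.3 summits per 100 kb in replicate 1 and 9.89 in replicate 2.

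At the shortest list lengths the ratio was above 1 in each of these lists. With 381 peaks from each, the ratio to the rest of the chromosome was 2.93 in replicate 1 and 1.51 in replicate 2, and on the IDR list it was 2.43. At 1000 peaks the ratios were 2.09, 1.25 and, for the pooled list, 1.87. At 3000 they were 1.82, 1.01 and 1.31. The replicate 2 counts behind these ratios are small (11 summits at 381 peaks and 27 at 1000), and their counting intervals reach below 1. Weighted to GC content as described next, the replicate 2 ratio was 2.03 (1.01 to 3.63) at 381 peaks, 1.64 (1.08 to 2.38) at 1000 and 1.27 (0.989 to 1.61) at 3000. These intervals cover the window count only and hold the count from the rest of the chromosome fixed. In replicate 2 that count was 32 at 381 peaks and 95 at 1000. Lower ends just above 1 therefore do not set these ratios apart from 1.

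**Figure D2:**
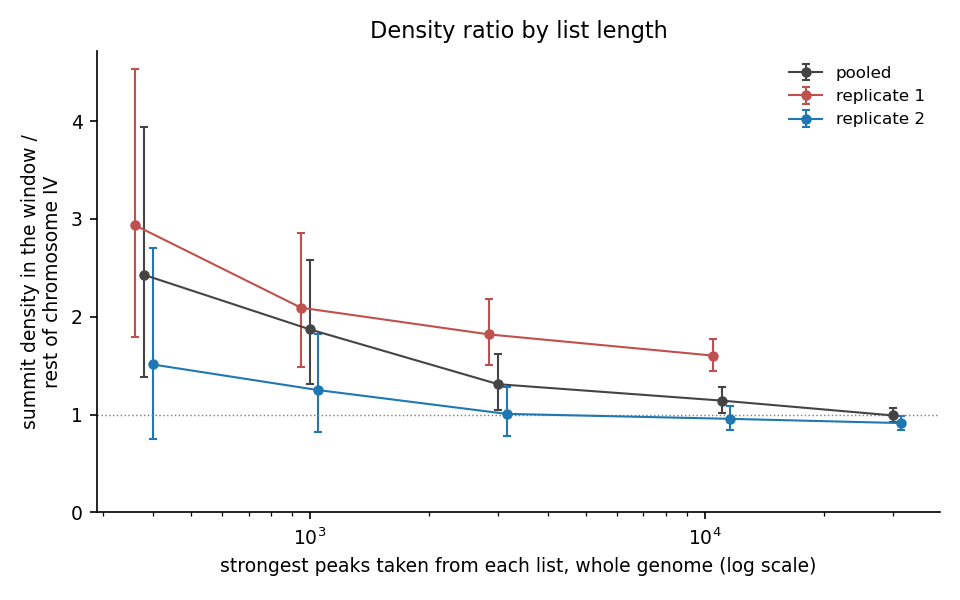
Summit density in the window divided by that of the rest of chromosome IV, against the number of strongest peaks taken from each list over the whole genome (log scale, points of the 3 lists shifted sideways to separate them). Bars are 95% counting intervals of the window count, the dotted line is a ratio of 1, and replicate 1 lies above replicate 2 at every length shown.

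The base composition of the window differed from its surroundings, which bears on these ratios. Its GC content was 34.0%, beside 35.5% in the rest of chromosome IV, while the summits lay in richer sequence (within 100 bp, 37.9% GC in the pooled list, 36.1% in replicate 1 and 39.8% in replicate 2). With the rest of the chromosome weighted to the GC content of the window, the ratio was 1.13 for the pooled list (1.05 to 1.22), 1.75 for replicate 1 (1.58 to 1.93) and 1.16 for replicate 2 (1.02 to 1.31). The ratio of the pooled list and of replicate 2 therefore lay below 1 without this weighting and above 1 with it. Here too the intervals leave out the counting error of the rest of the chromosome. Whether GC content sets the number of peaks was not tested.

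Along the window the peaks were spread more evenly than the 21U-RNA genes. In 25 bins of 100 kb the number of 21U-RNA genes ran from 0 to 220, and that of pooled summits from 13 to 42 with a median of 29. Most summits lay in the bins that begin 1000 kb and 1400 kb into the window (42 each, with 211 and 189 21U-RNA genes), then in those at 600 kb and 1100 kb (38 each, with 182 and 143). Fewest lay in the bins at 400 kb (13, with 110 21U-RNA genes), 2200 kb (19, with 17) and 1700 kb (20, with 93). The first 3 bins held 0, 1 and 8 21U-RNA genes and still 26, 33 and 36 summits.

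Over the 25 bins Spearman's rho between summits and 21U-RNA genes was 0.33 for the pooled list, 0.45 for replicate 1 and −0.06 for replicate 2. The rho of the pooled summits with GC content was 0.33 as well, and that of 21U-RNA genes with GC content was −0.42. These are descriptions over bins that share libraries, gene density and base composition. Replicate 1 had more summits than replicate 2 in 21 of the 25 bins, fewer in 2 and as many in 2, with a median difference of 6. In the rest of chromosome IV it had more in 53 of 110 bins and fewer in 50, with a median difference of 0. The largest gaps were at 800 kb (28 summits in replicate 1 and 10 in replicate 2) and at 1900 kb (22 and 6).

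**Figure D3:**
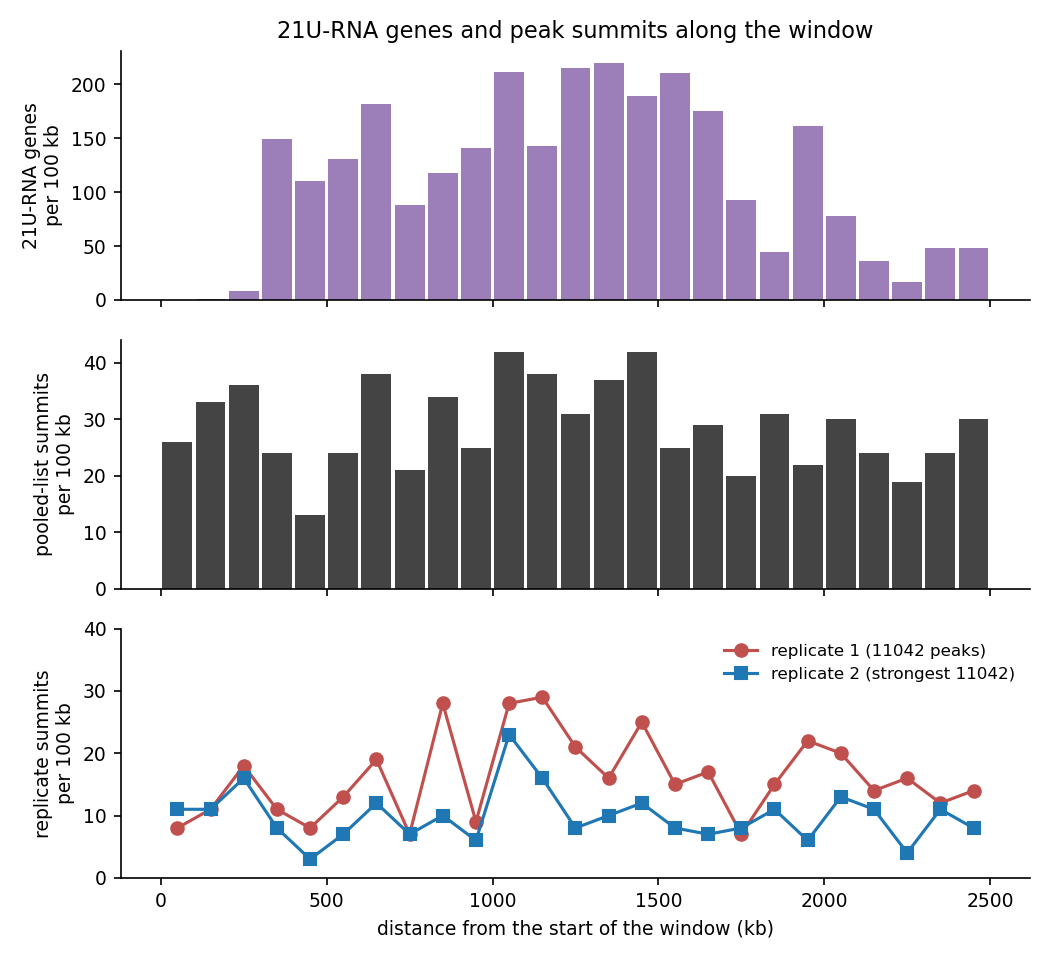
Number of 21U-RNA genes (top), pooled-list summits (middle) and summits of each replicate at equal list length (bottom) in 25 bins of 100 kb, against distance from the start of the window in kb. The 21U-RNA genes range from 0 to 220 per bin and the pooled summits from 13 to 42, and the replicate 1 line lies above that of replicate 2 in 21 bins.

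Relative to the bases of the window, pooled summits near the 5′ ends of 21U-RNA genes were slightly fewer, replicate 1 summits slightly more and replicate 2 summits fewer. Of the 718 pooled summits, 246 lay within 300 bp of one (34.3%, 30.8 to 37.9), where 37.6% of the bases of the window do, a ratio of 0.912. In replicate 1 it was 165 of 403 (40.9%, 36.1 to 45.9; ratio 1.09), and in replicate 2 67 of 247 (27.1%, 21.7 to 33.1; ratio 0.722). Of the 16 peaks on the IDR list 2 lay that close, those at 21ur-8200 and B0350.t1. The bases near 21U-RNA 5′ ends had 31.0% GC, beside 35.7% for the others. When bases were weighted to the GC content of the summits, 28.3% lay that close for the pooled list, 32.3% for replicate 1 and 23.7% for replicate 2. The ratio became 1.21, 1.27 and 1.14. The pooled and replicate 2 ratios were thus on opposite sides of 1 with and without the weighting.

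Within 100 bp of the 5′ end, in sequence of 29.2% GC, the replicates differed too. There lay 78 of the 403 replicate 1 summits (19.4%, 15.6 to 23.6) and 17 of the 247 replicate 2 summits (6.88%, 4.06 to 10.8), where 17.0% of the bases are that close. For the pooled list it was 91 of 718 (12.7%, 10.3 to 15.3). Weighted to the GC content of the summits, the ratios to the bases were 1.49 in replicate 1, 0.992 in replicate 2 and 1.27 in the pooled list. In the 50 bases just upstream of the 5′ end, replicate 1 had 26 summits (23.1 per 100 kb, 15.1 to 33.8) and replicate 2 had 2 (1.78 per 100 kb, 0.215 to 6.41). From 200 to 300 bp downstream they had 25 and 15 (23.5 and 14.1 per 100 kb), with overlapping intervals.

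**Figure D4:**
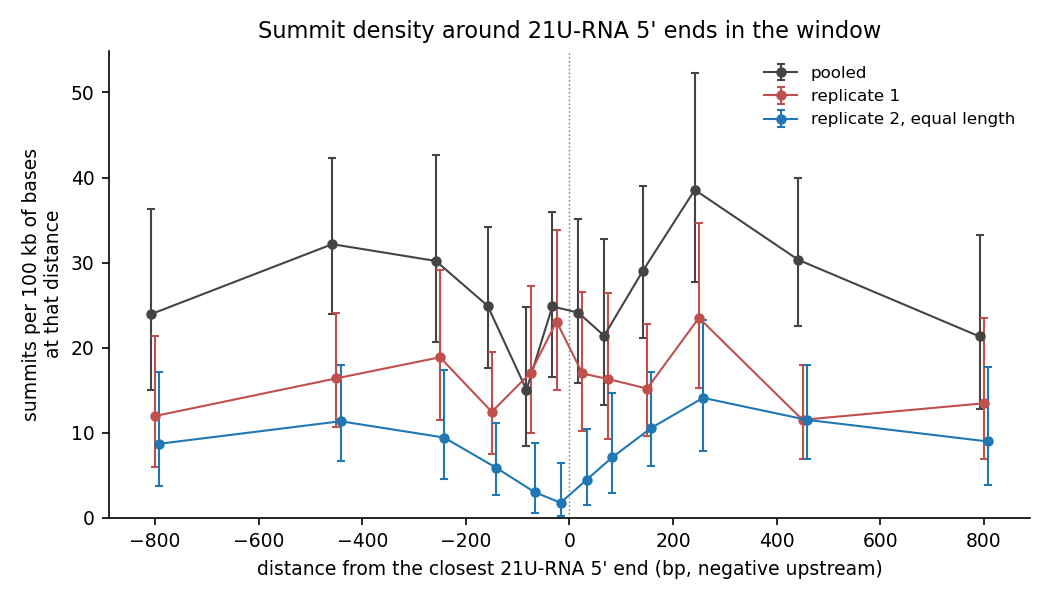
Summits per 100 kb of bases at each distance from the closest 21U-RNA 5′ end (bp, negative upstream on the strand of the gene), for the pooled list and each replicate at equal length, with 95% counting intervals and points shifted sideways to separate the lists. Replicate 2 falls to 1.78 just upstream of the 5′ end, where replicate 1 stands at 23.1.

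Counted by gene, 395 of the 2816 21U-RNA genes had a pooled summit within 300 bp (14.0%, 12.8 to 15.4), where 19.7% of all 21U-RNA genes did in the genome. In replicate 1 it was 278 (9.87%, beside 17.8% in the genome) and in replicate 2 105 (3.73%, beside 3.46%). Neighbouring 21U-RNA genes share summits. When 5′ ends within 300 bp of the next were merged, the 2816 genes formed 1496 loci, of which 259 had a pooled summit (17.3%). Genes with the core motif upstream had one in 16.2% of cases and genes without it in 12.6%, a difference of 3.58 percentage points; it was 1.51 points in replicate 1 and 1.00 in replicate 2. Within 100 bp of the summit, on either strand, the core was in 60 of 718 pooled windows (8.36%, 6.44 to 10.6), 11.2% of replicate 1 windows (8.26 to 14.7) and 5.26% of replicate 2 windows (2.83 to 8.83), where 9.96% of all windows of that length held it.

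The strongest summit near a 21U-RNA gene without another small RNA gene was that of 21ur-8200, in an intron of fkh-7, which encodes a forkhead transcription factor. It had 21.9 in the pooled list, 4.76 in replicate 1 and 15.7 in replicate 2. This summit lay 270 bp upstream of the 5′ end, well outside that gene's own core at −47 bp. Another copy of the core lay close to the summit, between positions 5591232 and 5591332, on the strand opposite to 21ur-8200. At 21ur-7377 the summit lay 171 bp downstream, at the peak already described beside sls-2.19. That of 21ur-11261, at 17.6 (4.05 and 13.6 in replicates 1 and 2), lay 133 bp upstream. The same summit is 20 bp into hda-6, a histone deacetylase gene, and 273 bp upstream of F41H10.4. These 3 were at or beyond 133 bp from the 21U-RNA start.

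Another summit in fkh-7, at 14.6 in the pooled list, 2.93 in replicate 1 and 7.82 in replicate 2, lay 239 bp from 21ur-3446, whose closest summit was a weaker one at 3.85. Next by closest summit came one at 13.0, with 4.36 in replicate 1 and 9.05 in replicate 2. It lay 8 bp downstream of the 5′ end of 21ur-8766 and 92 bp downstream of that of 21ur-11244, both with the core upstream. Of the 10 genes whose closest summit had the highest signal, 21ur-8766 was the only 1 with it within 50 bp. 21ur-1205 (12.7) and 21ur-15344 (11.6) had no replicate 1 summit, with 11.3 and 9.03 in replicate 2. At 21ur-4109, 21ur-11431 and 21ur-9826, which share a summit near ugt-20, the pooled signal was 11.9, with 5.04 in replicate 1 and 3.61 in replicate 2. Of these 10 genes, 4 carried the core.

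Several of these summits were in fkh-7. The genes in this paragraph were chosen after their values were seen. fkh-7, a gene of 25695 bp, held 18 of the 718 summits, or 0.701 per kb, and 78 21U-RNA genes, with 19 summits in replicate 1 and 11 in replicate 2. The peak at position 5588195, also in its introns and 362 bp upstream of 21ur-10155, had 19.9 in the pooled list, 5.27 in replicate 1 and 15.5 in replicate 2. The netrin receptor gene unc-5 held 13 summits (0.398 per kb) with 97 21U-RNA genes, and the ankyrin gene unc-44 held 11 (0.375 per kb) with 20. The gene kcc-2, with 98 21U-RNA genes, held 5 (0.149 per kb). The whole window had 28.7 pooled summits per 100 kb. mgl-3, with 37 21U-RNA genes, held 8 summits (0.678 per kb), and nhr-46, with 17, held 7 (0.667 per kb). F28E10.1, of 21457 bp and with no 21U-RNA gene inside, held 6 (0.280 per kb). In a short gene a few summits already give a high density. These picked genes therefore do not show how density goes with 21U-RNA genes. Some shorter genes with no 21U-RNA gene inside reached similar or higher densities in the pooled list. pygo-1 had 5 summits (1.39 per kb), nssp-40 had 5 (0.709 per kb), perm-5 had 5 (0.649 per kb) and skn-1, which encodes a transcription factor of the stress response, had 6 (0.642 per kb). Replicates 1 and 2 gave 1 and 2 summits in pygo-1, 3 and 2 in nssp-40, 2 and 3 in perm-5 and 7 and 5 in skn-1. They gave 6 and 5 in unc-5, 5 and 4 in unc-44 and 5 and 2 in kcc-2. In mgl-3 they gave 1 and 2, in nhr-46 5 and 2, and in F28E10.1 1 and 4. Some pooled peaks overlap and match the same replicate 2 summit, as at 5083644 and 5083866 in pygo-1 and at 5591282 and 5591494 in fkh-7.

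By position, exons of protein-coding genes held 246 of the 718 summits (34.3%, where exons make up 27.1% of the bases), introns 214 (29.8%, 31.1% of the bases) and bases outside protein-coding genes 258 (35.9%, 41.8% of the bases). In replicate 1 exons held 22.6% and in replicate 2 37.7%. Introns near a 21U-RNA 5′ end had 21.1 summits per 100 kb in replicate 1 and introns farther away 15.8, beside 8.43 for such introns in the rest of the chromosome. In replicate 2 the values were 8.45, 8.03 and 8.83. Exons near a 21U-RNA 5′ end had 16.01 in replicate 1 and 7.68 in replicate 2, and exons farther away 12.7 and 15.5. Outside protein-coding genes the near and far values were 15.2 and 17.1 in replicate 1, and 5.84 and 10.6 in replicate 2. Near values were thus the higher ones in introns and exons of replicate 1 and, by a small margin, in introns of replicate 2, and the lower ones in the other 3 cases.

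At equal list length, few weaker peaks were found in both replicates. Within 200 bp of the pooled summit, 225 of the 718 had a replicate 1 summit (31.3%), 234 a replicate 2 summit at equal length (32.6%), 65 both (9.05%) and 324 neither (45.1%). All 16 peaks on the IDR list had both. Of the 463 peaks beyond rank 10000 of the pooled list, 2 had both and 279 had neither. Among the 246 peaks near a 21U-RNA 5′ end 19 had both (7.72%), and among the other 472 it was 46 (9.75%). The pooled list was made from the same libraries, so this match does not count as a separate measurement.

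Set directly against each other at equal length, 64 of the 403 replicate 1 summits had a replicate 2 summit within 200 bp (15.9%, 12.5 to 19.8), and 62 of the 247 replicate 2 summits the reverse (25.1%, 19.8 to 31.0). In the rest of chromosome IV it was 14.9% of 1106 and 14.3% of 1136. In the window similar numbers of matched summits are divided by unlike totals. The higher replicate 2 share there does not by itself show closer agreement. With the 381 strongest of each, 9 of 20 and 9 of 11 matched. Unmatched replicate 1 summits lay within 300 bp of a 21U-RNA 5′ end in 150 of 339 cases (44.2%), and matched ones in 15 of 64 (23.4%). They also had lower signal (median 2.73, beside 4.72) and lower GC content (35.2%, beside 40.8%). For replicate 2 the shares were 28.6% of 185 unmatched and 22.6% of the 62 matched, with GC contents of 39.2% and 41.6%. The part of GC content and signal in these shares was not tested.

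Over the 105 peaks found in both full replicate lists, Spearman's rho between the replicate signals was 0.55. It was 0.88 over the 17 at small RNA genes and 0.40 over the other 88. These peaks share their libraries, and the first set spans a far wider range of signal. Some of the 105 match the same replicate summits, as at 5591282 and 5591494, and were counted as separate points.

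**Figure D5:**
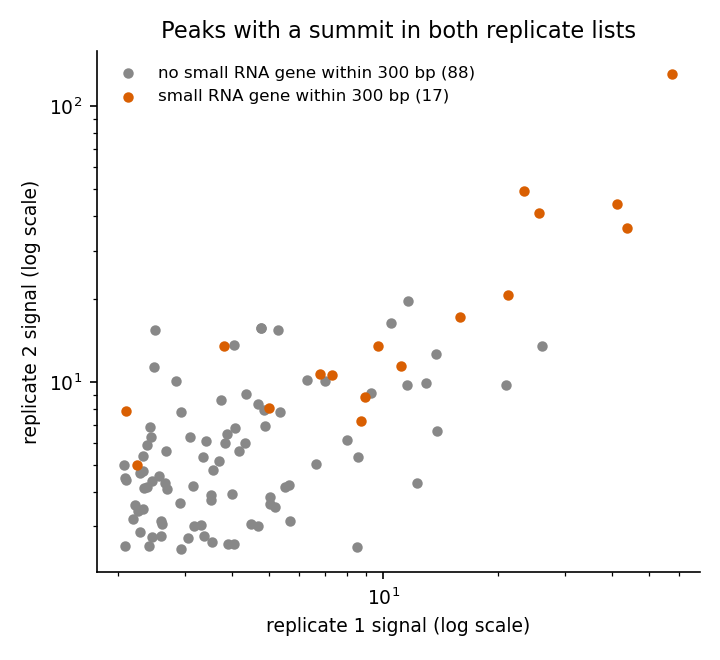
Replicate 2 signal against replicate 1 signal (both log scale) for the 105 peaks of the window with a summit within 200 bp in both full replicate lists, 17 of them at small RNA genes other than 21U-RNA genes. The highest point is T08B6.64, at 57.6 and 130.

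Of genes known for 21U-RNA transcription, maturation or function, all 29 of a list were matched by name in the annotation (prg-2 as a pseudogene), and 11 had a pooled summit within 300 bp (signal 3.63 to 21.3; 23.4% of all protein-coding genes had one). In the window lay snpc-3.1, of the SNAPc subunit family, and prg-2, a relative of the Argonaute gene prg-1. Neither had a summit that close. For snpc-3.1 the closest was 5921 bp away. For prg-2 it was 338 bp downstream of the 5′ end, with a signal of 4.13 and, in replicate 1, 2.24. A second one, 364 bp upstream of prg-2, had 5.74 and, in replicate 1, 5.78. Replicate 2 had no summit matching either. The gene of the tagged protein itself, snpc-4, lies elsewhere and had a summit of signal 21.3, where its native copy and the inserted one cannot be told apart.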

How the data were processed

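ChIP-seq peak lists of 2 biological replicates (1 group) were analysed. They are narrowPeak files of 10 columns on ce11. The signal and the −log10 of the q-value of each peak, and its summit position, are as the authors deposited them; signal gave the order of peaks and the −log10 value was not used. The summit position, a unit of its own, is an offset in bases in the deposited lists. Per the file records, each list was made from the alignments and 1 further file shared by both replicates. Aligner, peak caller, thresholds and read depth: not given in the sources used here.

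Genes came from Ensembl 115 on WBcel235, and gene names from RefSeq by WormBase identifier (99.98% of genes). A peak counted at a gene with its summit within 300 bp of the 5′ end. Shares near 21U-RNA genes were set beside the share of all bases of the window. Intervals are Clopper-Pearson for shares and exact Poisson for densities, at 95%. For GC content, 100 bases to either side and classes of 2 percentage points were used. Replicates were compared on their strongest 11042 peaks. The distance, matching and counting steps were tested on simulated data. Named peaks are the 20 strongest, the IDR peaks, up to 5 genes with and 3 without a summit per small RNA class, and the 10 21U-RNA genes of highest signal. The members, lists and settings were chosen with earlier results of these data known. Python 3.11.15, numpy 2.4.6, pandas 2.3.3 and scipy 1.17.1 were used.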

Additional observations from a re-analysis of the deposited data

How the results depend on the processing

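Of 47 recomputed values, 31 stayed within the spread between replicates, or within the counting interval or 1.5 times the count, and 16 moved further. That spread was wide, with a standard deviation of 0.457 for the density ratio and 0.364 for the bin correlation. It comes from the same 2 replicate values that stand for leaving out a replicate. The count of 31 therefore does not show that the results were stable. The density ratio of the window was 2.43 on the IDR list and 1.87 with the strongest 1000 peaks; with 1 replicate left out it ran from 0.957 to 1.60. The bin correlation, 0.33 in the pooled list, was 0.11 with 50 kb bins, 0.048 with the strongest 3000 peaks and 0.40 with 250 kb bins, and ran from −0.061 to 0.45 without either replicate. The ratio of summits to bases near 21U-RNA 5′ ends was 0.333 on the IDR list and 1.21 with GC weighting, an alternative added, like that for density, after seeing the data; without either replicate it ran from 0.722 to 1.09. The share of 21U-RNA genes with a summit was 6.85% within 150 bp, 44.7% within 1000 bp and 5.40% at the shorter list length, and ran from 3.73% to 9.87% without either replicate. The replicate match was 10.7% within 100 bp, 22.1% within 500 bp, and 45% at 381, 46.2% at 1000 and 26.5% at 3000 peaks. Small RNA genes with a summit numbered 23 in the pooled list, 9 on the IDR list and 20 to 21 without either replicate. The cause of these shifts was not tested, apart from the shorter lists and other distances, which by construction count fewer or more peaks. No paired analysis was possible because there is 1 group and no comparison between groups. Leaving out a replicate means using the list of the other one, which for replicate 2 was cut to its strongest 11042 peaks. Both are shorter than the pooled list of 30000 peaks. In these values the loss of a replicate and the shorter list therefore cannot be told apart.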
